A study of Oryza sativa with 12 samples.

Results

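The comparison described here sets rice leaves given azoxystrobin alone against leaves given water, with 3 RNA-seq libraries on each side. These 6 libraries were chosen by their treatment label from 12, and the remaining 6 come from leaves given VdAL, or VdAL together with azoxystrobin (called the combination). All plants belonged to the same indica hybrid, TU100, and were 1 month old, so every group shares that genetic background and age. The labels give no dose of azoxystrobin, no time between treatment and sampling, no expansion of VdAL, and no statement that libraries with the same treatment derive from different plants. Spread between replicates, and so every p-value, may be technical in part or whole. The growth description names different areas without tying samples to them, so area and treatment cannot be told apart.

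Azoxystrobin is a strobilurin fungicide. It binds the quinol oxidation site of the cytochrome bc1 complex, complex III of the mitochondrial electron transport chain, and so stops electrons from passing from ubiquinol to cytochrome c. The target is conserved in plants, and plant mitochondria also hold an alternative oxidase, which takes electrons from ubiquinol ahead of the blocked step. The comparison asks which leaf messenger RNAs stood at another level in leaves given the fungicide alone.

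The deposited counts list 88438 gene IDs, 40745 with the prefix BGIOSGA and 47693 with the prefix EPlOING. No deposited file names a gene for an ID, and 0 IDs matched the given table of 39387 japonica rice genes. Genes are therefore described by ID, level and behaviour, no function is given to any of them, and the labelled tissue could not be checked against leaf markers. Reads assigned to genes ranged from 6897887 in azoxystrobin replicate 2 to 10144564 in water replicate 2. Of the IDs, 33973 had a read in at least 1 of the 6 libraries. After a filter on low counts 21381 were tested, and these held 99.7% of the reads in genes in each of the 6 libraries.

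The libraries of the 2 sides overlapped in make-up. Reads in genes made up 39.0% ± 1.61 (SD, n = 3) of the recorded reads in water and 38.9% ± 0.681 in azoxystrobin. Reads outside any gene made up 46.9% ± 2.35 and 46.1% ± 1.17, and reads that did not align uniquely 13.4% ± 3.84 and 14.2% ± 1.83. The exact two-sided permutation p was 1 for reads in genes, 0.7 for reads outside genes and 0.9 for reads not aligned uniquely, where 3 libraries against 3 cannot go below 0.1. Water replicate 3 stood apart from its group, with 9.01% of reads not aligned uniquely, against 15.03% and 16.14% in the other water libraries. Replicates correlated with each other at 0.947 to 0.964 (Pearson, log2 levels of the tested IDs), and water with azoxystrobin libraries at 0.936 to 0.967, so the ranges overlap. The median SD between replicates was 0.28 on the log2 scale in water and 0.23 in azoxystrobin. In bulk leaf RNA, fewer cells of a type and less RNA per cell cannot be told apart.

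Few of the tested IDs were called different between azoxystrobin and water, and most of the calls were decreases. Levels are in CPM, the reads of an ID relative to its library's total, with totals scaled by edgeR's trimmed-mean factors (TMM), and an ID is called where its Benjamini-Hochberg adjusted p in edgeR's quasi-likelihood test was under 0.05. Of the 21381 IDs tested 569 were called, or 2.66%. The lower IDs numbered 454 (2.12% of those tested) and the higher ones 115 (0.538%). An unadjusted p under 0.05 was found for 3587 IDs, 2162 lower and 1425 higher, and a further 551 IDs had an adjusted p from 0.05 to 0.1. The median log2 fold change of all tested IDs was −0.02, and 10% of them lay below −0.65 and 10% above 0.43.

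**Figure D1:**
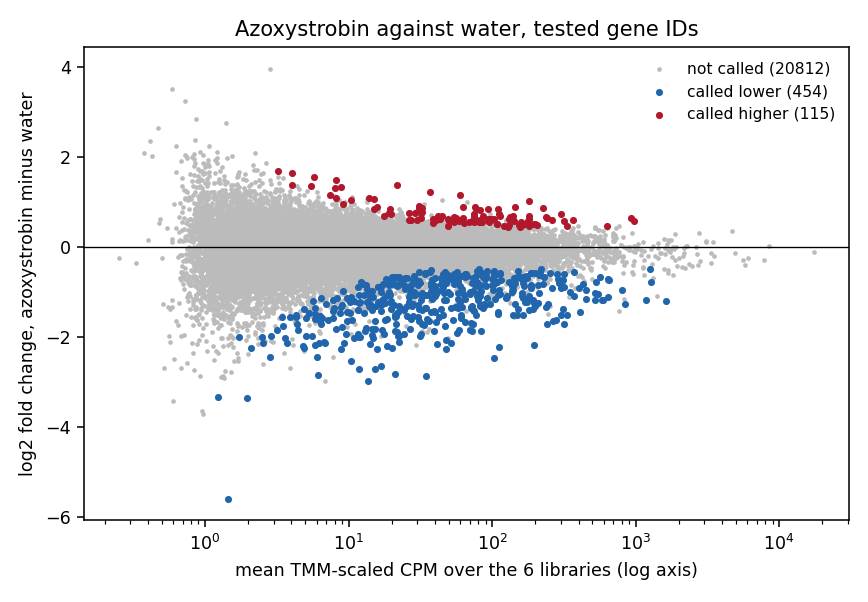
Each point is a tested gene ID, placed by its mean TMM-scaled CPM over the 6 libraries (log axis) and its log2 fold change, azoxystrobin minus water. The 454 IDs called lower (blue) reach farther from 0 than the 115 called higher (red), and IDs that were not called (grey) scatter most widely at low levels.

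The decreases were also the larger changes. Among the 454 lower IDs the middle 80% had log2 fold changes from −1.98 to −0.67, with a median of −1.18. At least a 2-fold decrease was estimated for 289 of them and at least a 4-fold decrease for 43, while 18 were estimated at under 1.5-fold. The 95% interval lay wholly beyond 2-fold for 89. A stricter test, edgeR's glmTreat, asks whether the change exceeds 1.5-fold, and 55 IDs passed it at an adjusted p under 0.05, or 0.257% of those tested. All 55 were lower. Together the 454 lower IDs took 5.12% to 6.09% of the reads in genes in the 3 water libraries and 2.74% to 3.30% in the 3 azoxystrobin libraries. The same libraries chose the IDs, so the shares are a description.

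The increases were smaller. The 115 higher IDs had log2 fold changes from 0.50 to 1.11 over their middle 80%. The estimate reached 2-fold for 17 of them and 4-fold for 0, and 35 were estimated at under 1.5-fold. The median SE was 0.14 on the log2 scale, against 0.23 for the lower IDs. In the glmTreat test against 1.5-fold 0 higher IDs passed, and 140 had an unadjusted p under 0.05, against 719 lower ones. Without a filter on low counts 6 higher IDs passed that test, and 1 did so with upper-quartile factors, with library sizes alone, with each library's share of reads not aligned uniquely in the fit, and without water replicate 2, azoxystrobin replicate 1, VdAL replicate 1 or VdAL replicate 3. The 115 IDs took 0.921% to 0.995% of the reads in genes in water and 1.54% to 1.58% in azoxystrobin.

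Complete losses and gains were not seen. No ID had 0 reads in all 3 azoxystrobin libraries and 30 or more reads over the water libraries, and no ID had the reverse. Among the 454 lower IDs the middle 80% had a mean level of 7.86 to 219 CPM over the 6 libraries, and among the 115 higher IDs 11.7 to 202 CPM.

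The IDs named here had the largest changes among 485 IDs. These 485 were called, did not overlap between the sides and averaged at least 10 CPM over the 6 libraries. Outside them, called log2 fold changes reached −5.60 downward and 1.68 upward. BGIOSGA031737 had the largest decrease of the 485. It stood at 38.6, 18.1 and 16.4 CPM in water replicates 1 to 3 and at 4.14, 2.95 and 2.05 CPM in azoxystrobin replicates 1 to 3. These values come from 267, 180 and 112 reads in water and from 34, 21 and 17 reads in azoxystrobin. The lowest water library was 3.96 times the highest azoxystrobin library, and water replicate 1 lay at more than double the others of its group. The log2 fold change was −2.99 (SE 0.55, adjusted p = 0.0075), or 7.94-fold lower. Without azoxystrobin replicate 3 it was −2.76, with an adjusted p of 0.0675, which ends the call.

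BGIOSGA008804 behaved in the same way at a higher level. It stood at 84.0, 53.8 and 44.0 CPM in the water libraries and at 11.1, 8.15 and 5.42 CPM in the azoxystrobin libraries. The sides were again far apart, by 3.97-fold between the nearest libraries, with water replicate 1 the highest. The log2 fold change was −2.88 (SE 0.46, adjusted p = 0.00326). Both IDs also passed the test against 1.5-fold, with adjusted p = 0.0456 for BGIOSGA031737 and 0.0244 for BGIOSGA008804.

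Of these 485 IDs, BGIOSGA007489 had the largest increase. Its water libraries stood at 12.72, 12.99 and 10.23 CPM and its azoxystrobin libraries at 39.53, 36.13 and 17.94 CPM. The water values were close together, while azoxystrobin replicate 3 lay nearer to water than to the other azoxystrobin libraries, at 1.38 times the highest water value. The log2 fold change was 1.37 (SE 0.26, adjusted p = 0.00888). BGIOSGA004711 rose from 21.0, 27.7 and 18.4 CPM in water to 61.7, 56.9 and 37.3 CPM in azoxystrobin. Replicate 3 was again the lowest azoxystrobin library, at 1.35 times the highest water library. Its log2 fold change was 1.21 (SE 0.22, adjusted p = 0.00698). Neither increase passed the test against 1.5-fold, with adjusted p = 0.133 for BGIOSGA007489 and 0.171 for BGIOSGA004711.

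**Figure D2:**
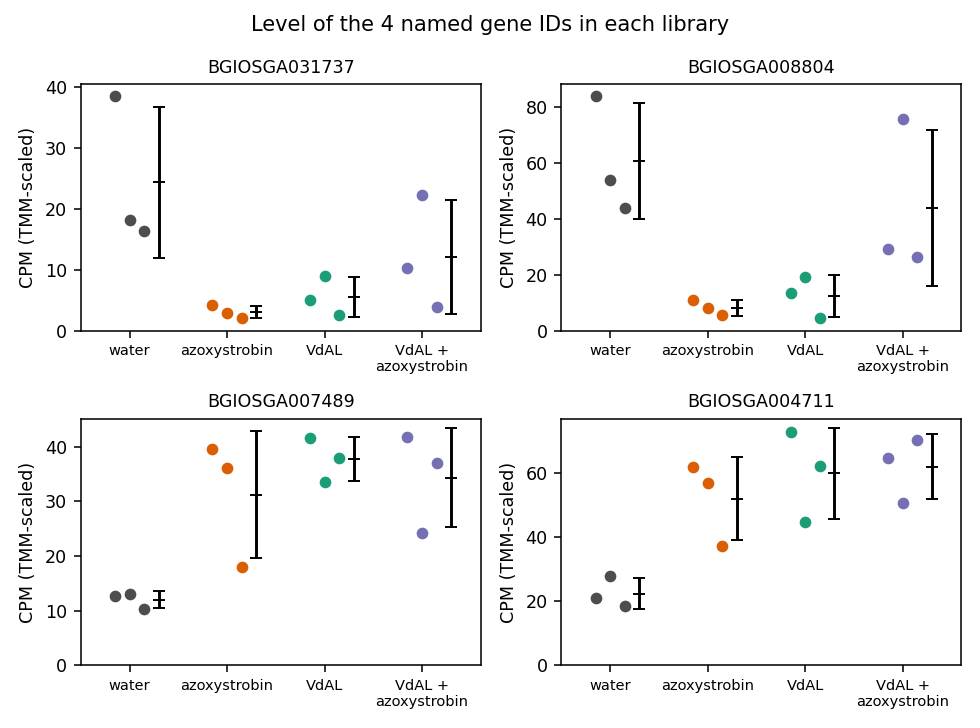
Points are TMM-scaled CPM of the 4 named IDs in each library, replicates 1 to 3 from left to right, with the mean and SD of 3 libraries beside them. In the upper panels the azoxystrobin libraries stay at or under 11.1 CPM while no water library is below 16.4 CPM, and in the lower panels azoxystrobin replicate 3 is the azoxystrobin library nearest to water.

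The changes were shared by the libraries of each side, but to unequal degrees. For 443 of the 454 lower IDs all 3 azoxystrobin libraries lay below all 3 water libraries, and for all 115 higher IDs they lay above. Such a separation was seen in 10.4% of all tested IDs downward and in 9.34% upward, so it is common also among IDs that were not called. Measured from the water mean, the median lower ID stood at −0.97, −1.15 and −1.28 on the log2 scale in azoxystrobin replicates 1 to 3, and at 0.12, 0.00 and −0.08 in water replicates 1 to 3. Azoxystrobin replicate 3 was the lowest azoxystrobin library for 211 lower IDs, replicate 2 for 150 and replicate 1 for 93. Water replicate 1 was the highest water library for 208 of them, replicate 2 for 145 and replicate 3 for 101. For the higher IDs the medians were 0.63, 0.62 and 0.67 in azoxystrobin, with little difference between libraries. Azoxystrobin replicate 3 was the highest azoxystrobin library for 55 higher IDs, replicate 1 for 35 and replicate 2 for 25. Both named increases differ from this, with replicate 3 as their lowest azoxystrobin library. The water and azoxystrobin libraries chose the IDs, so their separation, the medians and the counts per replicate are a description.

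**Figure D3:**
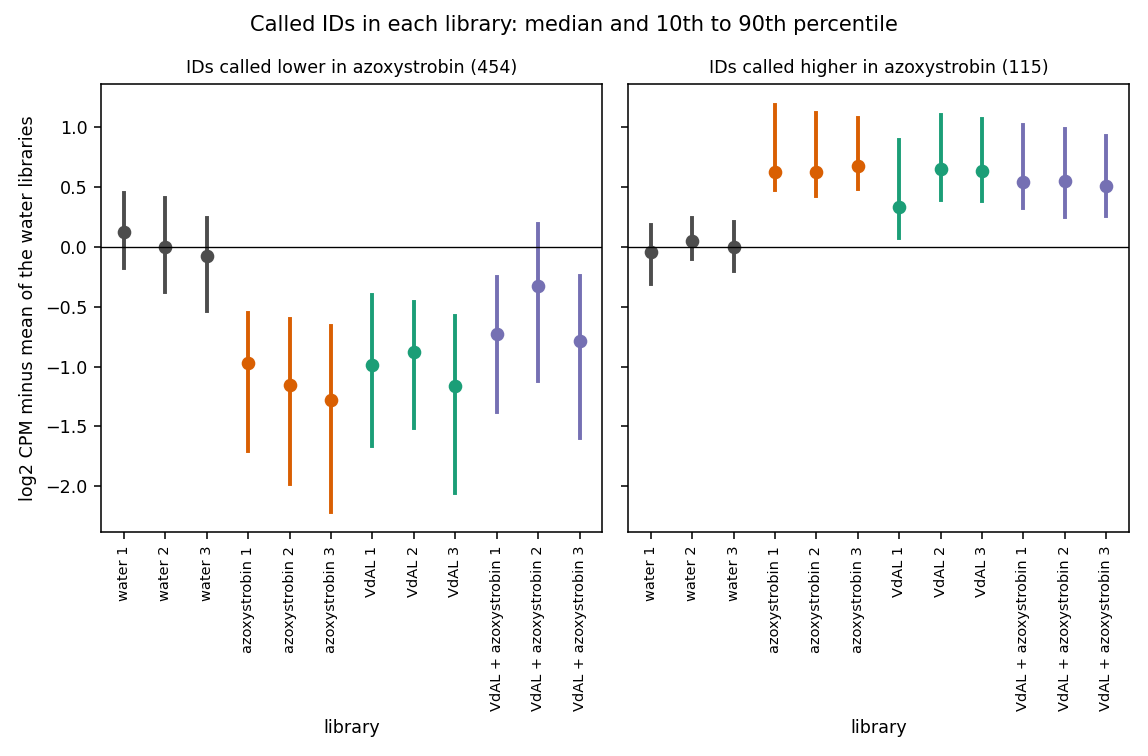
For the 454 lower (left) and 115 higher (right) IDs, dots give the median and lines the 10th to 90th percentile over IDs of log2 CPM minus the mean of the water libraries, in each of the 12 libraries. The lower IDs lie deepest in azoxystrobin replicate 3 (median −1.28) and nearest to water, among treated libraries, in combination replicate 2 (median −0.33).

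The number of calls depended on single libraries. It fell to 130 when azoxystrobin replicate 3 was dropped, to 252 when water replicate 1 was dropped and to 309 when azoxystrobin replicate 2 was dropped, against 498 to 563 when any other of the 6 libraries was left out and 412 to 758 when a VdAL or combination library was. Of the 569 calls, 115 were kept whichever of the 6 libraries was left out, 104 of them lower and 11 higher. For the test against 1.5-fold the count of 55 became 2 without azoxystrobin replicate 3, 7 without water replicate 1, 12 without azoxystrobin replicate 2 and 87 without azoxystrobin replicate 1. Fitting the 6 libraries without the other treatments gave 340 calls, 296 lower and 44 higher.

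**Figure D4:**
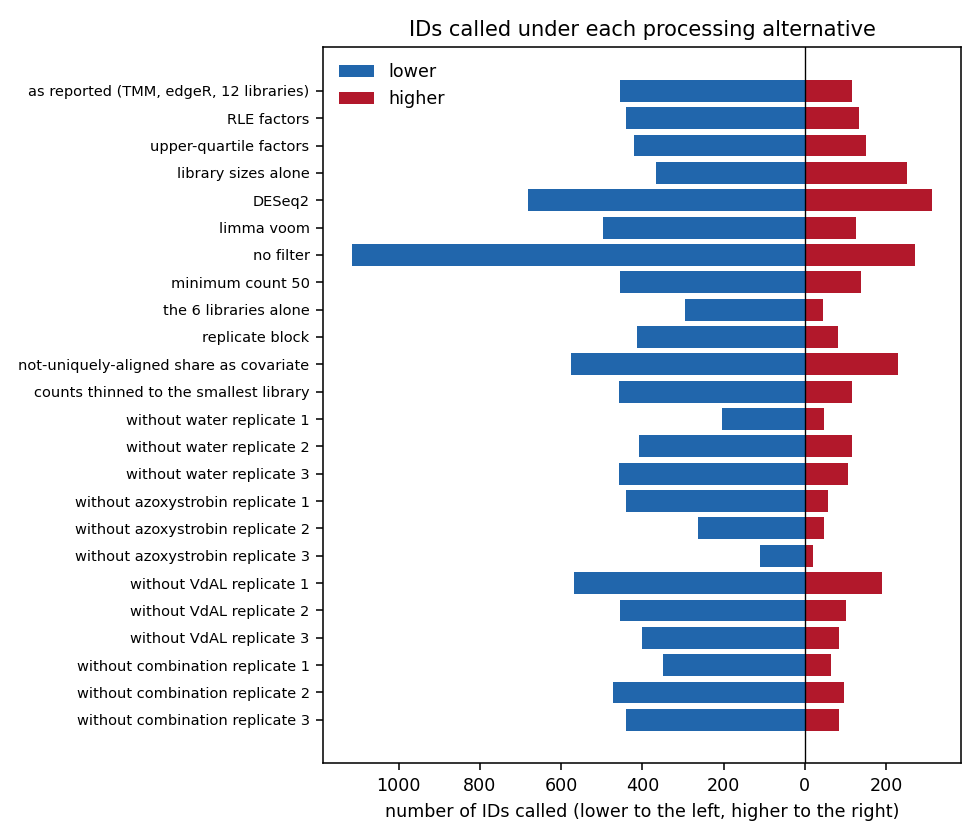
Bars give the number of IDs called in azoxystrobin against water under each processing alternative, lower IDs to the left and higher IDs to the right of 0. Lower IDs outnumber higher ones in every bar, from 111 against 19 without azoxystrobin replicate 3 to 1114 against 271 without a filter.

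The excess of decreases depended in size on the scaling of the libraries. Higher IDs made up 20.2% of the calls with TMM factors, which were 0.952 to 0.982 in water and 1.03 to 1.04 in azoxystrobin and so did not overlap between the sides. With library sizes alone the calls were 366 lower and 252 higher, or 40.8% higher, and the median log2 fold change of all tested IDs moved from −0.02 to 0.07. With edgeR's RLE factors 23.2% of 574 calls were higher, and with upper-quartile factors 26.4% of 572. DESeq2, which differs in its test as well as in its size factors, called 681 lower and 313 higher IDs, or 31.5% higher. Which of these accounts for its share was not tested. DESeq2 called 4.65% of the tested IDs. Of the 569 calls 562 were also called by DESeq2 and 480 with library sizes alone.

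Abundant transcripts were called more often, and they were also measured more precisely. Among IDs with a mean under 3 CPM 0.233% were called, and the 95% interval of the median ID reached 1.22 to either side on the log2 scale. From 10 to 30 CPM 2.52% of 5713 IDs were called, with an interval of 0.43 to either side. From 100 to 300 CPM it was 7.42% of 1496 IDs, and from 300 CPM upward 9.54% of 409 IDs, with an interval of 0.28 in both. In that top class 32 IDs were lower and 7 higher. Decreases of the called IDs were larger where levels were low, with a median log2 fold change of −1.60 from 3 to 10 CPM and −1.01 from 300 CPM upward. An ID of low level needs a larger change to be called, and the part this plays in that difference was not tested.

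**Figure D5:**
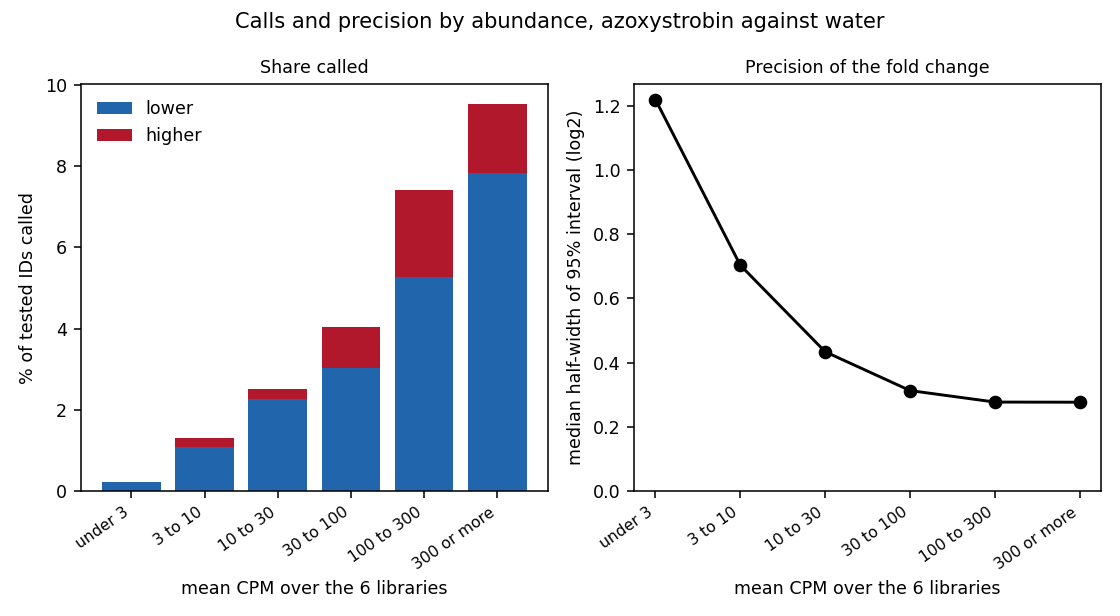
Tested IDs are grouped by mean CPM over the 6 libraries. The left panel gives the percentage called lower and higher, from 0.233% in all under 3 CPM to 9.54% from 300 CPM upward, and the right panel the median half-width of the 95% interval of the log2 fold change, which narrows from 1.22 to 0.28.

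For most other IDs a change of 2-fold could be bounded. The 95% interval lay within 2-fold in either direction for 64.0% of tested IDs and within 1.5-fold for 32.6%. Within 2-fold the share was 2.46% of IDs under 3 CPM, 47.8% from 3 to 10 CPM, 85.1% from 10 to 30 CPM and 93.0% from 30 to 100 CPM. Below 10 CPM a change of 2-fold was thus mostly not bounded at this depth.

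The share called was smaller among EPlOING than among BGIOSGA IDs. Of the 20081 tested BGIOSGA IDs 563 were called, or 2.80%, and of the 1300 tested EPlOING IDs 6 were called, or 0.462%. The EPlOING IDs were also lower and less precisely measured, with a median level of 2.97 CPM against 16.5 CPM and a median 95% interval of 0.97 against 0.47 to either side on the log2 scale. Among IDs of at least 10 CPM the shares called were 3.98% of 12417 BGIOSGA IDs and 0.976% of 205 EPlOING IDs. No test of this difference was run, and the sources used here do not say what the prefixes stand for.

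The same agent was also given on top of VdAL, which lets the change be set beside a measurement in 6 other libraries. In the combination against VdAL alone, 362 of the 454 lower IDs had an estimate above 0 and 92 one below 0, with a median log2 difference of 0.40 and a middle 80% from −0.23 to 1.07. The 115 higher IDs had a median of −0.03, with 67 below and 48 above 0. Over all tested IDs the median was 0.00. Of the 569 IDs 0 were called in that comparison by edgeR, where 0.0187% of the tested IDs were called. An unadjusted p under 0.05 in that comparison was found for 236 of the 569, or 41.5%, where 12.8% of the tested IDs had one. These were 224 of the 454 lower IDs and 12 of the 115 higher IDs, so the excess lay in the lower list. DESeq2 called 71 of the 569, or 12.5%, and 1.37% of the tested IDs. The spread of each ID was estimated from all 12 libraries, and abundant IDs were called more often. The shares over all tested IDs are therefore not a matched background, and the part this plays was not tested.

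The difference between both azoxystrobin effects was tested as an interaction, the log2 change with VdAL minus the change without it. It passed the threshold in 812 IDs, or 3.8% of those tested, 718 positive (3.36%) and 94 negative (0.44%). A positive interaction was called for 325 of the 454 lower IDs, or 71.6% of that list, and a negative one for 41 of the 115 higher IDs, or 35.7%. The 366 IDs in common make up 45.1% of the interaction calls. The water and azoxystrobin libraries that chose the IDs also enter the interaction, which favours such signs, so these counts are not independent evidence. The count was 1253 without water replicate 2, 1242 without VdAL replicate 1, 442 without azoxystrobin replicate 3, 311 without VdAL replicate 3 and 291 without combination replicate 2. It was 1310 with DESeq2, 1752 without a filter on low counts, and 539 when each library's percentage of multiply aligned reads entered the fit. With library sizes alone 493 were positive and 477 negative, and the median interaction of all tested IDs moved from 0.00 to −0.19.

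The named IDs show how the levels lay. BGIOSGA031737 stood at 5.02, 9.06 and 2.53 CPM in VdAL and at 10.3, 22.2 and 3.80 CPM in the combination, so those groups overlap. BGIOSGA008804 stood at 13.4, 19.3 and 4.35 CPM in VdAL and at 29.2, 75.8 and 26.5 CPM in the combination, without overlap. The combination was higher than VdAL by 1.16 on the log2 scale for BGIOSGA031737 (95% interval 0.06 to 2.25, edgeR adjusted p = 0.365) and by 1.84 for BGIOSGA008804 (0.91 to 2.78, adjusted p = 0.0967), and neither was called. Combination replicate 2 was the highest treated library for both. BGIOSGA007489 stood at 33.5 to 41.5 CPM in VdAL and 24.2 to 41.8 CPM in the combination, and BGIOSGA004711 at 44.8 to 72.7 and 50.7 to 70.3 CPM. For these IDs the log2 difference between combination and VdAL had a 95% interval from −0.65 to 0.38 and from −0.39 to 0.48, within 2-fold in either direction.

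The named IDs were also set against water in each of the 3 treatments, which share the same water libraries. Azoxystrobin was not tested against VdAL or against the combination. For BGIOSGA031737 the log2 fold change was −2.99 in azoxystrobin, −2.16 in VdAL (adjusted p = 0.0269) and −1.0002 in the combination (SE 0.49, adjusted p = 0.364). For BGIOSGA008804 it was −2.88 in azoxystrobin, −2.31 in VdAL (adjusted p = 0.00814) and −0.47 in the combination (adjusted p = 0.667). In the same order it was 1.37, 1.65 and 1.51 for BGIOSGA007489, and 1.21, 1.41 and 1.46 for BGIOSGA004711, and edgeR called each of these 6 differences from water. Both decreases were called in the single treatments and not in the combination, while both increases were called in all 3 treatments.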

How the data were processed

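The authors deposited raw read counts per gene ID, 1 table per library, ending in the HTSeq rows that hold unassigned reads. Per the submitters' processing notes, TopHat2 2.1.0, HTSeq 0.6.1 and edgeR 3.16.3 were used, without roles or settings. The notes name a pig genome build, yet 0 IDs carry the pig prefix ENSSSC, so no coordinates are given. The counting mode, strand setting and annotation release were not given in the sources used here. Thus reads from overlapping and antisense genes may be left out or counted for the other gene. Near-identical copies lose reads to the class not aligned uniquely. That class and reads outside genes or fitting more than 1 gene (0.646% to 0.830%) stayed out of library sizes and tests.

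IDs were kept by filterByExpr (minimum count 10). Counts from all 12 libraries were fitted with edgeR 4.0.16 in R 4.3.3 (TMM factors, group means, glmQLFit and glmQLFTest, 8 residual degrees of freedom, prior 8.9), so that 4 groups share an estimate of the spread. P-values are two-sided, adjusted over all tested IDs at 0.05. Log2 CPM used a prior count of 2. The SE is the absolute log2 fold change over the square root of F. The procedure was tested on simulated data. Counts of 2 replicates differed by a chi-square of at least 6.76 per degree of freedom, above sampling noise. Named IDs were the 2 largest increases and 2 largest decreases among called IDs without overlap and with a mean of at least 10 CPM. The comparison, the naming rule and the alternatives were chosen with earlier results of these data known. Gene lists for the alternative oxidase, complex III, detoxification, defence, photosynthesis, senescence, stress, cell division and other tissues had 0 measurable members, because no ID has a name. Alternatives were RLE, upper-quartile and no factors, DESeq2 1.42.0, limma 3.58.1 voom, other filters, the 6 libraries alone, a block, a covariate, thinning and leaving out each water and azoxystrobin library. Leaving out each VdAL and combination library was added after seeing the data.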

Additional observations from a re-analysis of the deposited data

Results flagged for a closer look

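The azoxystrobin effect with VdAL differed from that without it, by the test of the difference, in 812 IDs, 718 of them positive and 94 negative. Among the named IDs the interaction was 4.14 on the log2 scale for BGIOSGA031737 (SE 0.76, edgeR adjusted p = 0.00566) and 4.72 for BGIOSGA008804 (SE 0.64, adjusted p = 0.00114). It was −1.51 for BGIOSGA007489 (SE 0.35, adjusted p = 0.0255) and −1.16 for BGIOSGA004711 (SE 0.30, adjusted p = 0.0413). These IDs were picked for large changes between azoxystrobin and water, which enter the interaction, so their values are not independent evidence of it. With 1 library left out the count ran from 291 without combination replicate 2 to 1253 without water replicate 2, and it was 1310 with DESeq2 and 1752 without a filter on low counts. Groups of 3 libraries are too small for the test of single outlying samples.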

How the results depend on the processing

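Of the alternatives that kept all 6 water and azoxystrobin libraries and all libraries of any other treatment they used, the number of IDs called in azoxystrobin against water (569) moved by over 1.5 times with DESeq2 (994), without a filter (1385) and with the 6 libraries alone (340). The count past 1.5-fold (55) did so without a filter (306), and the interaction count (812) with DESeq2 (1310), without a filter (1752) and with the covariate (539). Leaving out 1 of the 12 libraries gave 130 to 758, 2 to 87 and 291 to 1253 IDs for these 3 counts, where the fits without a VdAL or combination library were chosen after seeing the data. The cause of these moves was not tested, beyond the fewer samples of the fits that drop libraries. With the replicate number as a block the counts were 494, 71 and 621. Same-numbered water and azoxystrobin libraries deviated together at r = 0.01, −0.20 and −0.01, and 0 of these libraries correlated best with their own number. Deviations from a mean of 3 libraries are tied to each other, so these values cannot settle whether same-numbered libraries share more than a number. The highest values were 0.23 for water replicate 2 with azoxystrobin replicate 1 and 0.19 for water replicate 3 with azoxystrobin replicate 2. The log2 fold change of BGIOSGA031737 ran from −3.28 to −2.50 (adjusted p from 1.48e-22 to 0.0675) and that of BGIOSGA008804 from −3.16 to −2.57 (6.43e-44 to 0.0406). That of BGIOSGA007489 ran from 1.16 to 1.65 (2.11e-10 to 0.0383) and that of BGIOSGA004711 from 1.06 to 1.41 (1.28e-10 to 0.037). For each named ID the lowest adjusted p came only from the fit without a filter. The next lowest, from DESeq2, were 0.00145 for BGIOSGA031737, 0.000276 for BGIOSGA008804, 4.76e-05 for BGIOSGA007489 and 2.75e-05 for BGIOSGA004711. The call was lost once, for BGIOSGA031737. The differences in read classes, azoxystrobin minus water in percentage points, had no stable sign. Reads in genes (−0.0926) became 0.291 as a share of uniquely aligned reads. With 1 library left out they ran from −0.785 to 0.79, reads outside genes from −1.41 to 0.641, reads fitting more than 1 gene from −0.0039 to 0.0883, and reads not aligned uniquely from −1.43 to 2.14. Depth limits IDs under 10 CPM most.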

Other observations

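Called decreases were more frequent beside other called decreases in the numbering of the IDs. Of the 11956 pairs of tested BGIOSGA IDs with consecutive numbers 22 had both members called lower, 0 had both called higher and 2 had opposite calls. Among the 269 lower IDs whose next number was tested, the next ID was also called lower in 8.18%. Of all tested IDs 2.12% were lower, and of the 20081 tested BGIOSGA IDs 450 were lower. The pairs hold 41 different IDs. Whether consecutive numbers are neighbours in the genome, copies of a gene, or parts of a gene split between models is not given in the sources used here, and no test was run.

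The larger spread lay in water for 12439 of the 21381 tested IDs, by the SD of log2 CPM over 3 libraries. The common biological coefficient of variation was 23.7% in water and 18.5% in azoxystrobin. The VdAL and combination libraries took part in choosing the called IDs only through the filter, the scaling and the shared spread. They are set against the same water libraries. In the VdAL libraries the 454 lower IDs took 2.64% to 3.36% of the reads in genes. In the combination these IDs took 3.36% to 4.55%, the highest in replicate 2. The 115 higher IDs took 1.33% to 1.66% in VdAL and 1.32% to 1.48% in the combination, against 0.921% to 0.995% in water. Measured from the water mean, the median higher ID stood at 0.33, 0.65 and 0.64 on the log2 scale in VdAL replicates 1 to 3. In combination replicates 1 to 3 it stood at 0.54, 0.55 and 0.51.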
